A study of Mus with 2 samples.

Results

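Collagen-rich spots were examined in Visium sections of 2 CT26 tumors, a control and 1 treated with recombinant interleukin 7 (rIL7). Visium captures polyadenylated RNA of a frozen section on a grid of barcoded spots, and a unique molecular identifier (UMI) lets every captured molecule count once. In each section, spots were ranked by the summed level of Col1a1, Col1a2, Col3a1, Dcn, Lum and Pdgfra, and the top 10% were called collagen-rich. Levels are UMIs per 1000000 UMIs of the spot or of the summed spots (CPM). The rule gave 222 of 2219 spots in the control section and 195 of 1950 in the rIL7 section, 417 of 4169 in all. The values of these 6 genes therefore chose the spots and are given below as a description only.

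CT26 is a colon carcinoma cell line of BALB/c mice, and the tumors grew under the skin of BALB/c hosts aged 6 to 8 weeks, which keep an intact immune system. The control mouse received vehicle and the treated mouse 10 µg of rIL7 into the abdominal cavity on days 11 and 13. Tumors of both groups were taken on day 15, frozen and cut at 10 µm. Each group held 1 section, so no test was possible and none was run. Intervals are exact 95% counting intervals, and they cover neither the spread between mice nor that between sections.

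Tumor stroma is built by fibroblasts, which secrete fibrillar collagens that are cleaved, assembled and cross-linked outside the cell. Small leucine-rich proteoglycans such as decorin (Dcn), lumican (Lum) and biglycan (Bgn) bind these fibrils. Blood vessels with their pericytes run in the stroma, and immune cells enter the tumor through it. A spot covers several cells of different types, so a higher level can come from more cells of a type or from more RNA per cell, and these cannot be told apart here.

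Over whole sections, median depth was similar on both sides of the choice. The median control spot held 10648.5 UMIs if collagen-rich and 9516 if not, and the median rIL7 spot 11879 and 13003. Single spots were far shallower, down to 349 UMIs if collagen-rich and 431 if not in the control. The lowest rIL7 values were 638 and 514 UMIs. In each section the collagen-rich spots included one chosen on only 2 UMIs of the choosing genes. Collagen-rich spots summed to 2446902 (control) and 2386211 UMIs (rIL7), and other spots to 20504776 and 23343022. Mitochondrial genes took 0.334% of UMIs in collagen-rich spots and 0.2436% in other spots of the control section, and 0.2868% and 0.1386% in the rIL7 section.

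The limit fell in a continuous range in the control section. The last spot inside it stood at 2685.5 CPM over the 6 genes and the next one outside at 2683.7 CPM. Within 100 CPM of the limit lay 60 collagen-rich and 68 other spots. The corresponding rIL7 values were 3074.3 and 3067.9 CPM, with 16 and 20 spots within 100 CPM.

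Summed over the 6 genes, collagen-rich control spots ranged from 2685.5 to 6206.2 CPM with a median of 2957.1 CPM, against a median of 1745.5 CPM in the other spots. Collagen-rich rIL7 spots ranged from 3074.3 to 22927.5 CPM with a median of 4103.3 CPM, against 1839.0 CPM. The medians of the other spots were thus close, whereas the upper end of the rIL7 section reached well past that of the control. Of the control spots, 84 (3.785%) exceeded the limit of the rIL7 section, and 293 rIL7 spots (15.03%) exceeded that of the control. Because each section gives up its own top 10%, the number of collagen-rich spots says nothing about the amount of stroma.

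**Figure D1:**
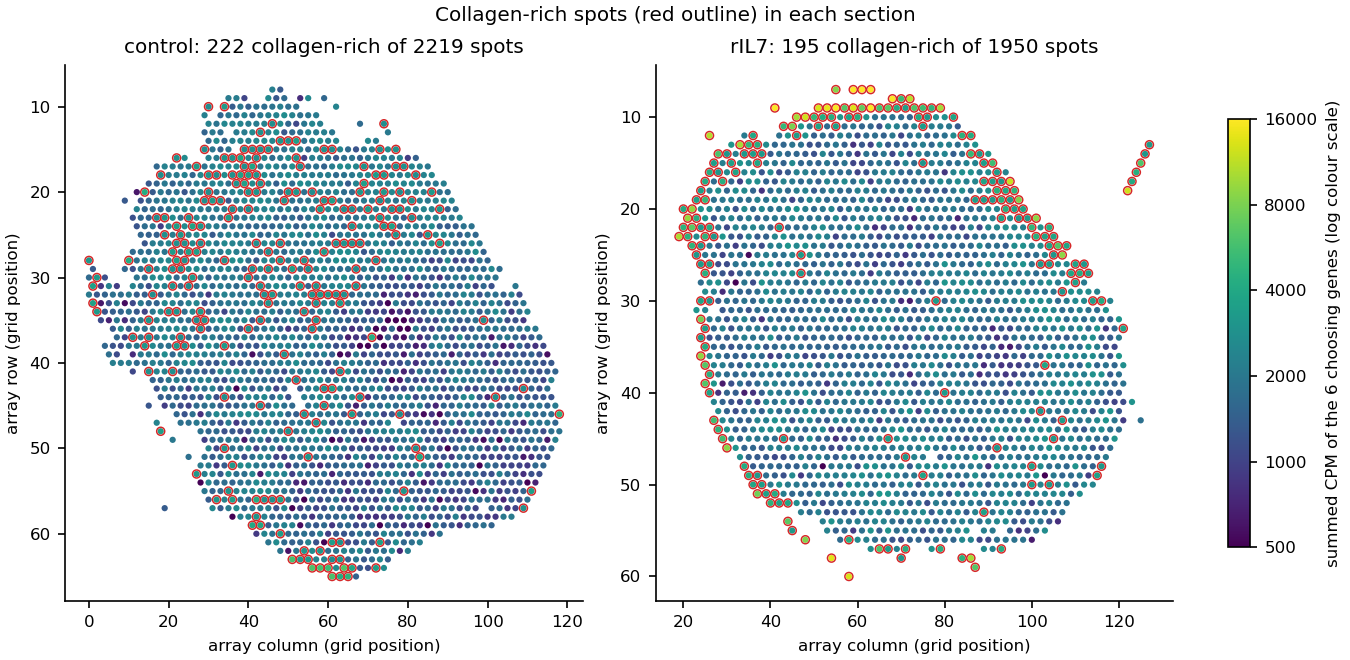
Every kept spot of each section at its grid position (array row against array column), colored by the summed CPM of the 6 choosing genes on a log scale, with collagen-rich spots outlined in red. The 222 control spots are scattered through the section with some patches, while most of the 195 rIL7 spots line its rim.

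The choosing genes did not contribute alike. Col1a1 (ENSMUSG00000001506; mm10 chromosome 11, 94936224 to 94953042), a chain of type I collagen, stood at 351.9 CPM in collagen-rich and 184.5 CPM in other control spots. It stood at 1108 and 146.0 CPM in the rIL7 section. The ratios were 1.91 (1.77 to 2.05) and 7.59 (7.21 to 7.99). Single collagen-rich spots ran from 0 to 2333.2 CPM of Col1a1 (median 303.9) in the control and from 0 to 5731.9 CPM (median 962.0) in the rIL7 section, so the spots overlap widely between sections.

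Col3a1 (ENSMUSG00000026043; mm10 chromosome 1, 45311538 to 45349706), which forms type III collagen, behaved similarly. It stood at 776.1 against 403.1 CPM in the control, 1.93-fold, and at 1704.8 against 399.0 CPM in the rIL7 section, 4.27-fold. Col1a2, the other chain of type I collagen and the most abundant of the 6, stood at 1229.7 against 811.4 CPM, 1.52-fold, and at 1626.4 against 762.4 CPM, 2.13-fold. It supplied 44.8% of the UMIs that ranked the control spots and 39.3% of those that ranked the rIL7 spots.

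Dcn and Pdgfra did not follow the collagens in the rIL7 section, whereas Lum did. Dcn was 1.82-fold (1.69 to 1.97) higher in the control, at 339.6 against 186.2 CPM, and 1.24-fold (1.15 to 1.32) higher in the rIL7 section, at 393.5 against 318.7 CPM. Pdgfra, a growth factor receptor of fibroblasts, was 1.73-fold (1.60 to 1.87) higher in the control section, at 317.5 against 183.5 CPM. In the rIL7 section it was lower in the collagen-rich spots, at 178.1 against 221.3 CPM, 0.805-fold (0.727 to 0.889), although it had helped to choose them. Lum was scarce, with 39 UMIs in collagen-rich control spots and 81 in those of the rIL7 section, and its ratios were 2.29 and 14.9.

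Spots chosen on some of the genes were compared on the genes that had not chosen them. When Col1a1, Col3a1 and Dcn alone ranked the spots, Col1a2 was 1.13-fold (1.09 to 1.19) higher in the control and 1.99-fold (1.92 to 2.06) higher in the rIL7 section. Pdgfra was 1.24-fold higher in the control and stood at 0.671-fold (0.601 to 0.747) in the rIL7 section, and Lum was 1.93-fold and 13.8-fold higher. When Col1a2, Lum and Pdgfra ranked the spots, a choice made after seeing the data, Col1a1 was 1.19-fold and 4.89-fold higher, Col3a1 1.28-fold and 3.30-fold, and Dcn 1.18-fold and 1.13-fold. The genes thus pointed to shared spots far less in the control section: 41 control spots (18.5%) and 94 rIL7 spots (48.2%) were in the top 10% by both sets of genes. Each set took its own top 10%, so unrelated rankings would share about 10% of these spots.

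The spread between spots showed the same contrast. For the 6 genes together, the variance of UMIs between control spots was 2.12 times that of counting error, and between rIL7 spots 12.7 times. By gene, the value was 1.97 for Col1a1, 1.56 for Col3a1 and 1.18 for Col1a2 in the control section, and 9.82, 10.6 and 3.20 in the rIL7 section. Dcn (1.39 and 1.55) and Pdgfra (1.34 and 1.32) were near counting error in both. Within the interior alone the sections came close, at 2.05 and 2.15 for the 6 genes together, and at the rim they stood apart, at 2.45 and 19.1.

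The position of the collagen-rich spots differed between the sections. The edge was taken as the spots within 2 grid steps of the outside of the largest connected piece of the section. It held 46 collagen-rich control spots, 20.7% (15.6 to 26.7) of them, against 17.8% of the other control spots. In the rIL7 section it held 136 collagen-rich spots, 69.7% (62.8 to 76.1) of them, against 11.0% of the other spots. Collagen-rich edge spots of the control were shallow, with a median of 6328.5 UMIs against 10901 over all its edge spots. In the rIL7 section these medians were 12065.5 and 11165.5 UMIs. For the interior they were 10943.5 and 9482 UMIs in the control and 13301 and 13162 in the rIL7 section. The part of low depth in the choice of control edge spots was not tested separately. The interior held 174 collagen-rich control spots (78.4%) and 39 collagen-rich rIL7 spots (20%). Small fragments outside the largest piece held 20 collagen-rich spots among their 21 spots in the rIL7 section and 2 among 12 in the control. With other choices of the spots, or an edge 1 grid step deep, the edge share ran from 13.96% to 29.73% in the control and from 45.64% to 76.53% in the rIL7 section.

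In the outermost ring 54.7% of rIL7 spots and 14.7% of control spots were collagen-rich, and at 10 or more grid steps from the outside 1.43% and 7.59%. Over all spots of the rIL7 section, Col1a1 went from 935.4 CPM in the outermost ring to 104.2 CPM in these deepest spots, Col3a1 from 1426.6 to 306.7 CPM, Col1a2 from 1383 to 709.0 CPM and Bgn from 405.2 to 29.19 CPM. The collagens and Bgn were thus concentrated in a rim of few rings. Pdgfra ran the other way, from 127.3 CPM at the outside to 248.1 CPM in the deepest spots, and Dcn was lowest in the second ring (229.9 CPM) and highest in the deepest spots (388.0 CPM).

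The control section had a weak form of this order. Col1a1 went from 260.6 to 166.7 CPM and Bgn from 88.80 to 31.80 CPM from the outermost ring to the deepest spots. Col1a2 (870.2 and 827.5 CPM) and Col3a1 (411.0 and 411.3 CPM) had nearly the same level at both ends. Pdgfra again was lower outside, at 143.2 CPM, than in the deepest spots, at 223.3 CPM.

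**Figure D2:**
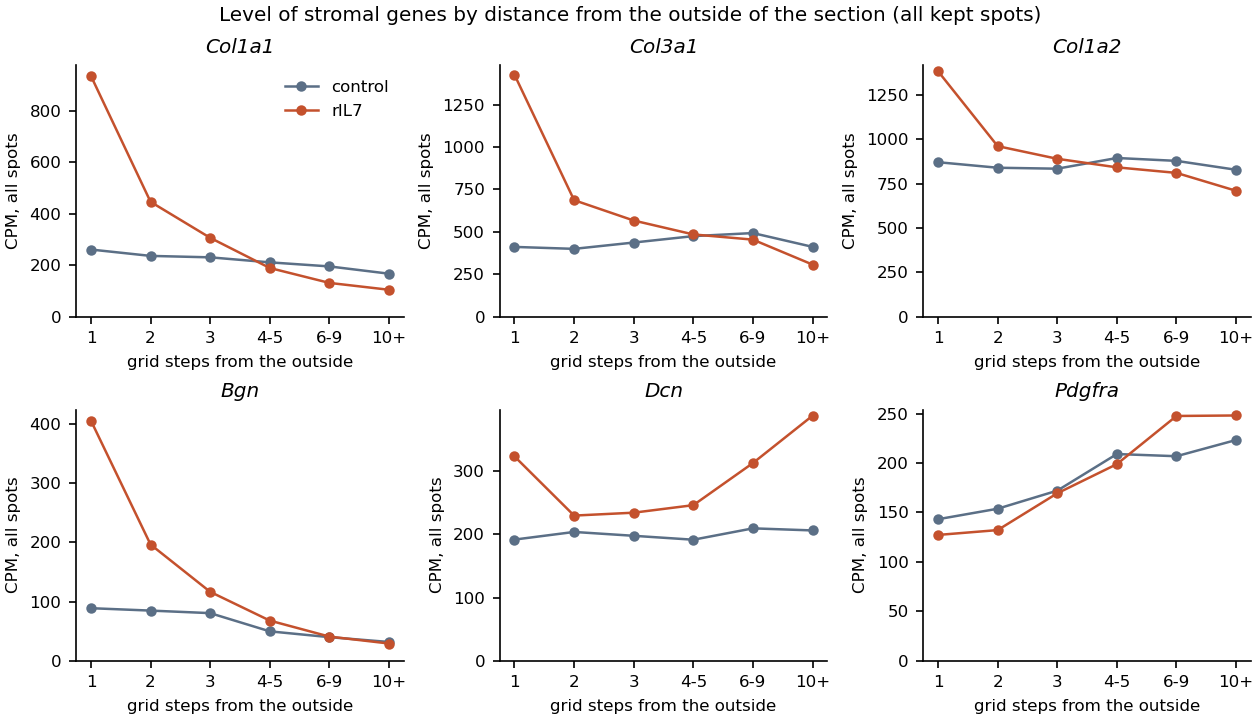
CPM of 6 stromal genes over all kept spots against distance from the outside of the section in grid steps, for the control (blue) and rIL7 (red) sections, with each point the sum over the spots of a ring. Col1a1, Col3a1, Col1a2 and Bgn fall steeply from the rim of the rIL7 section, for example from 935.4 to 104.2 CPM for Col1a1, whereas Pdgfra is higher inside in both sections.

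Collagen-rich spots lay beside one another more often than other spots lay beside them. In the control section 20.6% of the neighbors of a collagen-rich spot were collagen-rich, against 8.60% of the neighbors of other spots. For the rIL7 section the shares were 49.6% and 4.24%. Within the interior they were 20.1% and 8.54% in the control and 19.2% and 2.53% in the rIL7 section, so both interiors showed such neighborhoods. The control spots formed 120 patches, the largest of 19 spots, and 81 stood alone. The rIL7 spots formed 49 patches, the largest of 37 spots, and 31 stood alone.

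Across genes, 7608 genes other than the choosing ones had a mean of at least 20 CPM and were compared. Past a ratio of 1.5, the control section had 21 genes (0.276%) higher in collagen-rich than in other spots and 17 (0.223%) lower. The rIL7 section had 168 genes (2.21%) higher and 279 (3.67%) lower. Higher in both sections were 10 genes (0.131%), and lower in both were 3 (0.0394%). The median log2 ratio over all genes was -0.0048 (control) and -0.065 (rIL7). At 2-fold, 4 genes were higher and 0 lower in the control, and 55 were higher and 20 lower in the rIL7 section.

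These counts moved with the choice of spots. With the top 5% in place of the top 10%, 61 control and 286 rIL7 genes stood at least 1.5-fold higher, and with the top 20% 12 and 81. Within the interior alone, 3 genes passed in both sections.

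The genes higher in both sections were led by extracellular and secreted products. Bgn (ENSMUSG00000031375; mm10 chromosome X, 73483601 to 73495936), the proteoglycan biglycan, stood at 73.97 against 48.96 CPM in the control, 1.51-fold (1.28 to 1.77), and at 389.3 against 56.80 CPM in the rIL7 section, 6.85-fold (6.30 to 7.46). Cpxm1, a secreted carboxypeptidase-like protein, stood at 13.08 against 6.10 CPM, 2.15-fold (1.41 to 3.19), and at 217.5 against 20.22 CPM, 10.8-fold (9.48 to 12.2). Slpi, a secreted inhibitor of leukocyte proteases, was 1.77-fold (1.08 to 2.79) and 11.6-fold (10.2 to 13.2) higher. Its control value rested on 23 UMIs in collagen-rich spots. In the rIL7 section Slpi was detected in 72 of the 195 collagen-rich spots, 1 of which reached 11419.2 CPM. For these 3 genes the ratio was several times larger in the rIL7 section. Cpxm1 and Slpi stood below 20 CPM in both groups of control spots and passed the minimum through the rIL7 section. For them the minimum itself favors this direction.

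Selenop, a plasma selenium carrier that macrophages also express, stood at 106.7 against 61.99 CPM in the control, 1.72-fold (1.5 to 1.97), and at 209.5 against 83.19 CPM in the rIL7 section, 2.52-fold (2.28 to 2.78). Hs6st1, which adds sulfate to heparan sulfate chains, was 1.59-fold and 1.55-fold higher. Dnase1l3, an extracellular nuclease of macrophages and dendritic cells, was 1.56-fold and 1.52-fold higher, and Ms4a4b, a membrane protein of T cells, 1.55-fold and 1.82-fold. Htra3, a secreted serine protease (1.49 and 2.49), Slamf8, a receptor of myeloid cells (1.53 and 1.49), and Nr1h3, the oxysterol receptor LXR alpha (1.44 and 1.74), came next in order. Htra3, Slamf8 and Nr1h3 each stood under 1.5-fold in 1 section. The 10 genes past 1.5 in both sections were Bgn, Cpxm1, Slpi, Selenop, Hs6st1, Dnase1l3, Ms4a4b, Ighg2b, Igkc and a mitochondrial gene. Ms4a4b, Ighg2b and Igkc also stood below 20 CPM in both groups of control spots and passed the minimum through the rIL7 section.

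For several of these genes the control value rested on few spots or on the choosing genes. Immunoglobulin Ighg2b was 18.7-fold higher in collagen-rich control spots on 29 against 13 UMIs, the 29 UMIs coming from 4 spots, 1 of which held 18, and light chain Igkc 6.38-fold on 16 against 21 UMIs. When Col1a2, Lum and Pdgfra chose the spots, Bgn, Dnase1l3 and Ms4a4b no longer were higher in the control section, at log2 ratios of -0.0051, -0.087 and -0.021. When spots were thinned to 5000 UMIs, Cpxm1 stood at a log2 ratio of -0.18 in the control.

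Lower in both sections were Hmox1, the heme-degrading oxygenase, at 10.22 against 19.70 CPM in the control (0.519-fold, 0.332 to 0.777) and 33.95 against 110.9 CPM in the rIL7 section (0.306-fold, 0.242 to 0.382), the neural adhesion molecule Nrcam (0.649 and 0.608) and 1700086O06Rik (0.575 and 0.562). Mmp12, the macrophage elastase, stood at 0.674-fold (0.519 to 0.864) and 0.431-fold (0.364 to 0.506). Within the interior the ratio of Hmox1 was 0.494 and 0.235, and that of Mmp12 0.650 and 0.338, so both stood lower there too. The nucleoside transporter Slc29a2 (0.621 and 0.673), Dqx1 (0.682 and 0.685), the RNA-binding Rbpms2 (0.657 and 0.691) and the neutrophil-attracting chemokine Cxcl1 (0.698 and 0.505) followed. Hmox1 and Cxcl1 stood below 20 CPM in both groups of control spots. They passed the minimum through the other rIL7 spots (110.9 and 40.70 CPM), so the minimum itself favors a low ratio in that section.

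Matrix genes that had not chosen the spots were described as lists, whose members count from 20 UMIs in each section. At that minimum, with 12927 genes, ratios spread wider: 4.06% of genes were at least 1.5-fold higher and 5.18% lower in collagen-rich control spots, and 8.59% and 8.51% in those of the rIL7 section. The counts of every list below are to be read against these shares. Of 10 measured fibrillar and fibril-associated collagens, 0 were at least 1.5-fold higher in collagen-rich control spots and 6 in those of the rIL7 section, with list sums 1.247-fold (1.19 to 1.30) and 1.60-fold (1.54 to 1.66) higher. Col5a2, which helps to set fibril diameter, stood at 25.34 against 17.75 CPM in the control and at 114.0 against 11.91 CPM in the rIL7 section, 1.43-fold and 9.57-fold. Col6a3 (1.13 and 5.03), Col5a3 (1.23 and 5.46) and Col12a1 (1.30 and 3.60) followed that pattern. Col16a1, the most abundant of the list, did not, at 1.16-fold and 0.808-fold. The list's median log2 ratio was 0.28 (control) and 1.44 (rIL7).

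Proteoglycans split in the same way as Dcn and Bgn. In the control section 3 of 5 were at least 1.5-fold higher, namely Aspn (asporin; 27.79 against 10.34 CPM, 2.69-fold), Ogn (osteoglycin; 24.52 against 12.24 CPM, 2.00-fold) and Bgn. In the rIL7 section Bgn and Vcan (versican; 23.89 against 4.50 CPM, 5.31-fold) were higher, Prelp was lower at 71.24 against 111.2 CPM (0.641-fold), and Ogn (0.879) and Aspn (0.990) were near even. The list's sum in the rIL7 section was 2.40-fold higher, of which Bgn held 929 of 1284 UMIs in collagen-rich spots, while the median log2 ratio was -0.015.

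Matrix glycoproteins included 4 of 19 genes at least 1.5-fold higher in the control and 11 of 19 in the rIL7 section. Periostin (Postn) stood at 18.80 against 12.68 CPM in the control, 1.48-fold, and at 75.43 against 7.80 CPM in the rIL7 section, 9.68-fold. Sparc, a collagen-binding glycoprotein, was 1.05-fold and 1.92-fold higher, Igfbp7 1.26-fold and 4.90-fold, and the fibrillin Fbn1 1.38-fold and 2.95-fold. Fibronectin (Fn1) stood at 743.4 against 594.6 CPM and 983.6 against 876.9 CPM, and the matricellular Thbs2 at 1.02-fold and 0.741-fold, so the list did not move as a block. Fbln1 (3.47 and 15.2) and Mfap4 (5.19 and 6.73) had high ratios in both sections on 12 and 13 UMIs in the control.

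Basement membrane genes gave 0 of 12 and 4 of 12, among them Col15a1 (1.18 and 7.08), Col4a1 (1.05 and 1.59) and Col4a2 (121.0 against 120.9 CPM and 197.0 against 130.8 CPM), while the laminin chain Lamb2 stood at 1.12-fold and 0.707-fold. Enzymes of collagen processing and cross-linking gave 1 of 18 and 4 of 18. The lysyl oxidase Lox, which cross-links collagen, stood at 8.99 against 4.34 CPM in the control (2.07-fold) and 65.38 against 7.71 CPM in the rIL7 section (8.48-fold), and Loxl1 (1.23 and 3.59) and the procollagen protease Adamts2 (1.15 and 6.43) were higher mainly in the rIL7 section. The abundant collagen chaperone Serpinh1 (1.01 and 1.06) and the enhancer Pcolce (1.06 and 0.882) were near even. The sums of this list were 1.05-fold and 1.07-fold higher.

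Matrix receptors had 1 gene higher and 1 lower of 9 in the control, and 0 higher and 1 lower in the rIL7 section, where the collagen receptor Ddr2 stood at 0.746-fold and integrin Itga2 at 0.647-fold. Of 14 matrix proteases and inhibitors, 0 were at least 1.5-fold higher or lower in the control, while in the rIL7 section 2 were higher, among them Mmp2 (139.1 against 35.17 CPM, 3.96-fold), and Mmp12 and Mmp3 (0.646-fold) were lower. The genes of the TGF-beta pathway, which induces collagen synthesis, gave 0 of 15 either way in the control and 0 higher and 2 lower in the rIL7 section. Their sum was 1.12-fold (1.08 to 1.16) higher in the control and 0.799-fold (0.768 to 0.830) in the rIL7 section. The latent TGF-beta binding proteins carried that sum, with Ltbp2 at 1.12-fold and 0.580-fold and Ltbp4 at 1.19-fold and 0.757-fold.

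**Figure D3:**
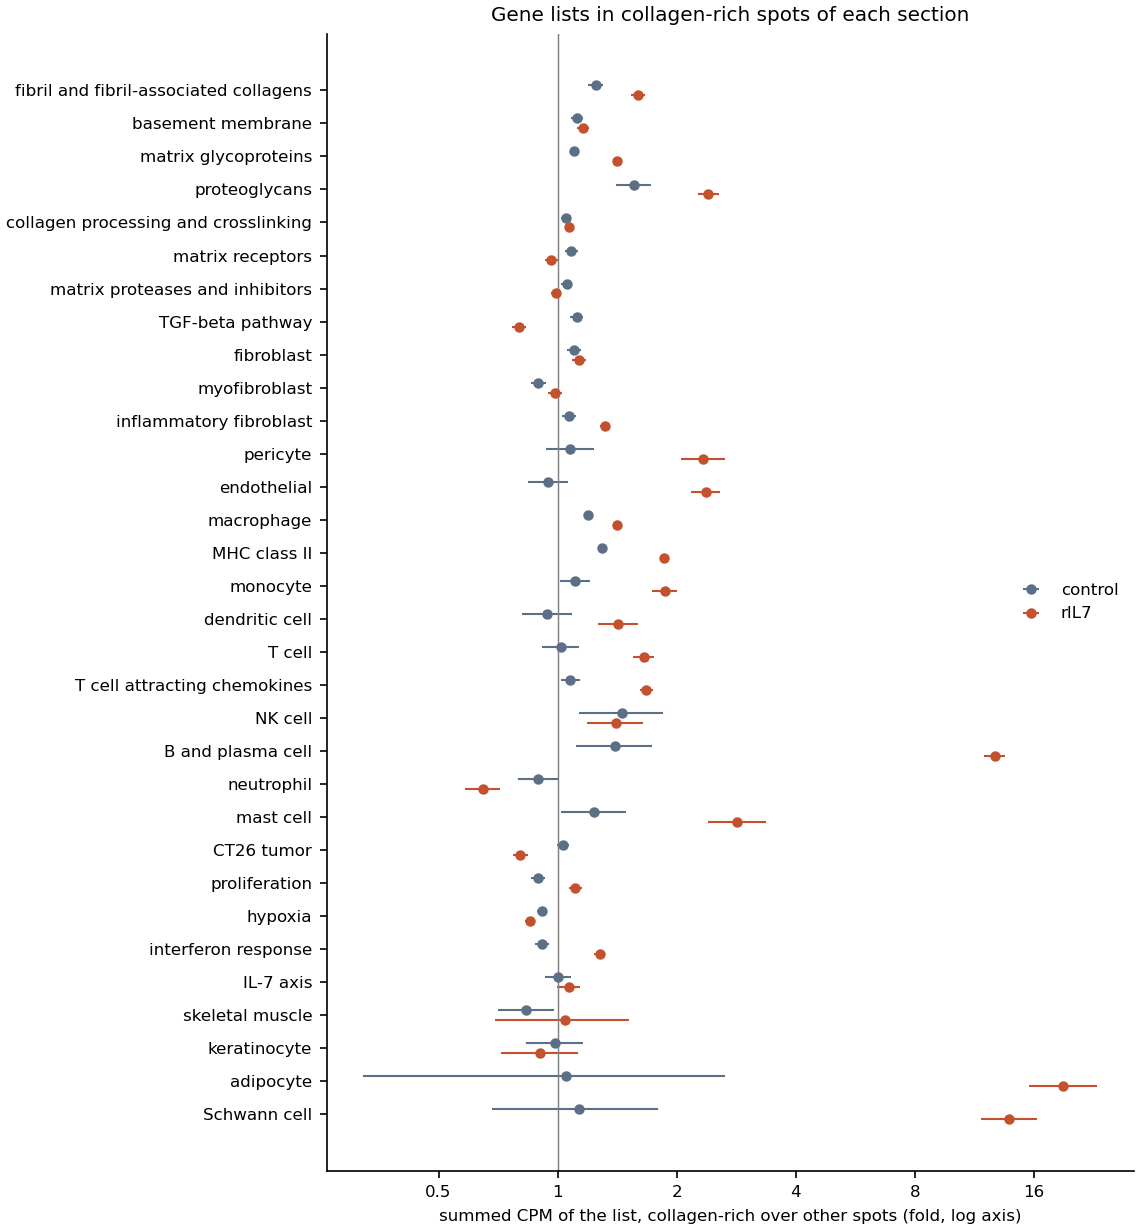
Summed CPM of each gene list in collagen-rich over other spots (fold, log axis) in the control (blue) and rIL7 (red) sections, with bars for the 95% counting interval. Control values run from 0.833 for the skeletal muscle to 1.556 for the proteoglycan list. In the rIL7 section the endothelial list stands at 2.37 and the B and plasma cell list at 12.7. The highest rIL7 values are 13.85 for the Schwann cell and 18.9 for the adipocyte list.

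The label of the spots as stromal was checked on fibroblast markers that had not chosen them. Of 10 measured markers, 1 was at least 1.5-fold higher in collagen-rich control spots and 4 in those of the rIL7 section, and the list sums were 1.099-fold (1.054 to 1.146) and 1.13-fold (1.09 to 1.18) higher. The median log2 ratios were 0.36 (-0.10 to 0.72) and 0.10 (-0.08 to 0.40). Of all genes at that minimum, 4.06% (control) and 8.59% (rIL7) were as high. The sums and medians thus differed little in both sections. Single markers of the rIL7 section were split, with log2 ratios from -0.29 to 4.19. The spots are called by their rule, collagen-rich.

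By gene, Thy1 stood at 51.49 against 39.16 CPM in the control (1.31-fold) and 125.7 against 49.69 CPM in the rIL7 section (2.53-fold). Pi16, a marker of adventitial fibroblasts, stood at 5.31 against 3.51 CPM and at 72.92 against 3.98 CPM, 1.51-fold (0.769 to 2.75) and 18.3-fold (14.15 to 23.8). The cancer-associated fibroblast markers Cthrc1 (1.05 and 9.22) and Lrrc15 (1.39 and 9.41) were higher in the rIL7 section on 33 and 25 UMIs. Prrx1, a transcription factor of mesenchymal cells (1.14 and 0.816), and Pdgfrb (1.26 and 0.927) were abundant throughout and did not follow the collagens.

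Contractile genes of myofibroblasts gave 2 of 7 in the control and 4 of 7 in the rIL7 section. Smooth muscle actin (Acta2) stood at 17.57 against 17.12 CPM in the control (1.03-fold) and 62.44 against 23.99 CPM in the rIL7 section (2.60-fold), and Myl9 at 1.52-fold and 8.48-fold. The abundant Tpm1 (0.861 and 0.875) brought the list sums to 0.894-fold and 0.984-fold. Pericyte genes gave 0 of 7 and 6 of 7, with Rgs5 at 13.90 against 10.92 CPM and 39.81 against 7.54 CPM (1.27-fold and 5.28-fold), and sums of 1.08-fold and 2.33-fold.

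Genes of inflammatory fibroblasts gave 3 of 13 in the control, and 7 higher and 1 lower of 13 in the rIL7 section. Cxcl12, a chemokine of stromal cells, stood at 5.72 against 3.71 CPM and at 105.2 against 10.97 CPM, 1.54-fold (0.806 to 2.75) and 9.59-fold (8.03 to 11.5). Cxcl14 was higher in both, 2.18-fold (1.72 to 2.74) and 7.57-fold (6.30 to 9.09). The monocyte-attracting Ccl2 was 1.04-fold and 0.810-fold, and Il6 was scarce (9 and 16 UMIs) and near even.

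Vessel genes differed between the sections. Of 12 endothelial genes, 1 was at least 1.5-fold higher and 2 lower in collagen-rich control spots, and all 12 were higher in those of the rIL7 section. Pecam1 stood at 20.03 against 22.48 CPM in the control and at 45.26 against 22.23 CPM in the rIL7 section, 0.891-fold and 2.04-fold, and the von Willebrand factor Vwf at 1.55-fold and 7.34-fold. The list sums were 0.948-fold (0.841 to 1.07) and 2.37-fold (2.17 to 2.58). Position moved with this result: against other spots of the same position in the rIL7 section, the sum was 1.32-fold (1.162 to 1.504) at the edge and 0.911-fold (0.682 to 1.19) in the interior.

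Macrophage and MHC class II genes had sums above even in both sections. Macrophage genes gave 0 of 12 and 3 of 12, with sums 1.19-fold and 1.41-fold, the latter 0.954-fold at the edge and 1.08-fold in the interior. Complement C1qa stood at 684.1 against 538.5 CPM (1.27-fold) and 912.7 against 577.7 CPM (1.58-fold), and Adgre1, which encodes F4/80, at 1.43-fold and 1.75-fold. MHC class II genes gave 0 of 7 and 6 of 7, with sums 1.29-fold (1.26 to 1.32) and 1.86-fold (1.82 to 1.89) and H2-Aa at 462.6 against 341.9 CPM and 810.5 against 383.2 CPM. Within the rIL7 section the class II sum was 0.772-fold at the edge, where other edge spots held 8810.2 CPM, and 1.196-fold in the interior. In the control it was 1.32-fold at the edge and 1.30-fold in the interior.

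Monocyte genes (0 of 5 and 4 of 5; sums 1.11-fold and 1.86-fold) and dendritic cell genes (0 of 5 and 3 of 5; 0.942-fold and 1.42-fold) followed, with Ly6c2 at 1.01-fold and 2.89-fold and Ccr7 at 0.931-fold and 4.398-fold. Ly6c1 and Ly6c2 are close paralogs between which reads may be split. Mast cell genes gave 0 of 5 and 4 of 5, with sums of 1.23-fold and 2.84-fold and the protease Mcpt4 at 1.48-fold and 3.09-fold. Neutrophil genes stood at 0.893-fold in the control and 0.648-fold (0.584 to 0.717) in the rIL7 section, with S100a9 at 73.15 against 87.69 CPM and 101.4 against 169.9 CPM. The neutrophil marker Ly6g was at 0 UMIs in both sections.

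T cell genes gave 4 of 11 in the control, none on more than 15 UMIs, and 9 of 11 in the rIL7 section. Trac, the alpha chain constant region of the T cell receptor, stood at 7.36 against 7.36 CPM in the control and 66.21 against 24.12 CPM in the rIL7 section, 0.999-fold and 2.75-fold. Cd8a stood at 0.736-fold and 1.55-fold, and Cd3g at 1.16-fold and 2.14-fold. The list sums were 1.02-fold (0.914 to 1.13) and 1.65-fold (1.55 to 1.76). Compared within position, the rIL7 sum was 0.888-fold (0.819 to 0.963) at the edge and 0.929-fold (0.778 to 1.101) in the interior, so it was not higher in collagen-rich than in other spots of the same position. The other edge spots held 674.1 CPM of these genes, and the other interior spots 265.5 CPM. Trbc1 and Trbc2 are near-identical, and their reads may be split.

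Chemokines that attract T cells gave 0 of 4 and 2 of 4. Cxcl9 stood at 66.21 against 55.40 CPM in the control (1.195-fold) and 327.3 against 154.2 CPM in the rIL7 section (2.12-fold), and Ccl5 at 1.04-fold and 2.11-fold. Their sum, 1.68-fold higher in the rIL7 section, was 0.904-fold at the edge and 0.965-fold in the interior when compared within position. NK cell genes gave 2 of 5 in the control, and 1 higher and 1 lower of 5 in the rIL7 section, with sums of 1.45-fold and 1.40-fold.

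Immunoglobulin transcripts had high ratios. Igkc stood at 868.7 CPM in collagen-rich and 49.48 CPM in other rIL7 spots, 17.6-fold (16.3 to 18.9), against 6.54 and 1.02 CPM in the control. The J chain of secreted antibody (Jchain) stood at 75.43 against 3.64 CPM in the rIL7 section, 20.7-fold (15.9 to 27.1), and Mzb1, a plasma cell protein, at 9.42-fold on 26 UMIs. The B cell marker Ms4a1 was at 0 UMIs in collagen-rich rIL7 spots. Igkc was detected in 91 of the 195 collagen-rich rIL7 spots, and a single spot reached 38323.9 CPM. The B and plasma cell list gave 1 higher and 1 lower of 3 in the control and 3 of 3 in the rIL7 section. Its sums were 1.39-fold and 12.7-fold, and its median log2 ratios 0.31 and 1.66. Igkc held 2073 of the list's 2446 UMIs in collagen-rich rIL7 spots, so the sum mostly gives this gene. Unlike that of the T cell genes, the sum stayed higher within position, 2.99-fold (2.78 to 3.22) at the edge and 2.13-fold (1.54 to 2.86) in the interior.

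**Figure D4:**
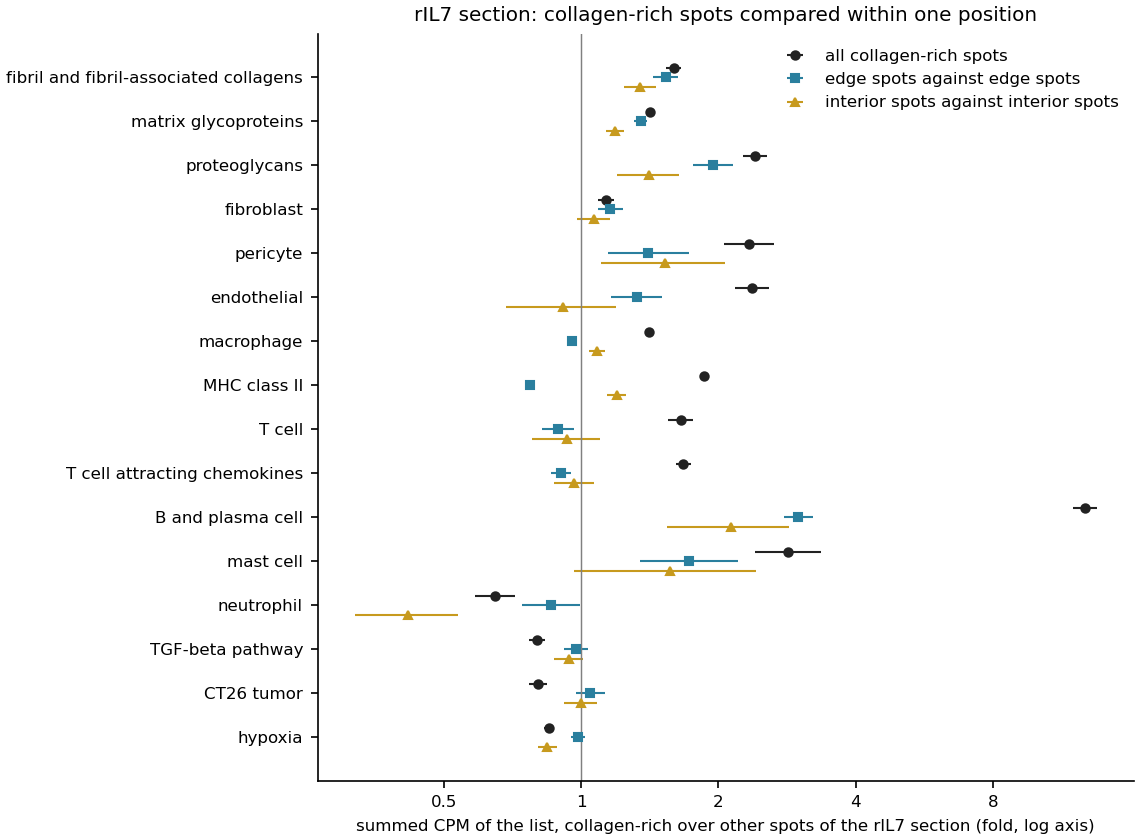
rIL7 section only: summed CPM of each list in collagen-rich over other spots (fold, log axis) for all spots (black circles), edge spots against edge spots (blue squares) and interior against interior spots (yellow triangles), with 95% counting intervals. The fibrillar collagen, glycoprotein, proteoglycan and B and plasma cell lists stay above 1 in each comparison, whereas the T cell list goes from 1.65 to 0.888 and 0.929.

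The matrix lists kept their direction when compared within position in the rIL7 section. The fibrillar collagens were 1.53-fold (1.44 to 1.63) higher at the edge and 1.35-fold (1.24 to 1.46) in the interior, the glycoproteins 1.35-fold and 1.19-fold, the proteoglycans 1.95-fold and 1.41-fold, and the pericyte list 1.40-fold and 1.53-fold. Among the choosing genes, Col1a1 was 4.10-fold at the edge and 4.34-fold in the interior, against 7.59-fold over all spots. Pdgfra was 1.18-fold (0.989 to 1.41) and 1.27-fold (1.08 to 1.48) within edge and interior, although it was 0.805-fold over all spots.

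The sums of tumor and state lists stood near even. The CT26 markers Rpl39l and Baiap2l1 together were 1.03-fold in the control and 0.805-fold (0.770 to 0.843) in the rIL7 section, and 1.05-fold and 0.997-fold within edge and interior of the latter. Proliferation genes gave 0 of 10 either way in both, with sums of 0.892-fold and 1.11-fold. Hypoxia genes gave 0 higher and 2 lower of 10 in the control, and 1 higher and 1 lower of 10 in the rIL7 section. Their sums were 0.910-fold and 0.849-fold, with the HIF target Bnip3 at 0.974-fold and 0.654-fold. Interferon-response genes gave 0 of 9 and 2 of 9, with sums of 0.914-fold and 1.28-fold and Ifi44 at 0.850-fold and 1.66-fold. Genes of the IL-7 axis gave 0 higher and 1 lower of 10 in the control, and 2 higher and 2 lower of 10 in the rIL7 section. Their sums were 311.0 against 310.8 CPM and 418.2 against 392.0 CPM. The receptor Il7r held 8 and 22 UMIs in collagen-rich spots (1.099-fold, 0.454 to 2.31, and 1.78-fold, 1.07 to 2.82).

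Markers of tissue around the tumor were present in places. Among collagen-rich spots, the adipocyte list held 5 UMIs (control) and 304 UMIs (rIL7), 18.9-fold (15.6 to 23.1) above its other spots, and the Schwann cell list 21 and 371 UMIs, 13.85-fold (11.8 to 16.3). The fragments held 219 of the 304 adipocyte and 341 of the 371 Schwann cell UMIs. Against collagen-rich edge spots, their level was 142-fold (93.4 to 228) for the Schwann cell list and 25.1-fold (19.4 to 32.6) for the adipocyte list. At the edge of the rIL7 section the ratio of collagen-rich over other spots was 1.155 (0.853 to 1.56) for the adipocyte and 0.728 (0.419 to 1.24) for the Schwann cell list. Skeletal muscle (0.833-fold and 1.04-fold), keratinocyte (0.987-fold and 0.904-fold) and red blood cell genes (8 and 9 UMIs) did not stand out.

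The fragments were also the most collagen-rich places of the rIL7 section. Their 20 collagen-rich spots held 10041.9 CPM of the choosing genes against 5014.8 CPM in the 136 collagen-rich edge spots. The median depth of these spots was 7195 UMIs in the fragments and 12065.5 UMIs at the edge. Col3a1 was 2.69-fold (2.48 to 2.92) and Lum 6.83-fold (4.20 to 11.0) higher there than at the edge, as were the pericyte (3.33-fold), endothelial (2.85-fold) and fibroblast lists (1.76-fold). The T cell (0.686-fold), B and plasma cell (0.348-fold) and hypoxia lists (0.698-fold) were lower.

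The sections were then set side by side over their collagen-rich spots, a comparison of 1 section with another. Past a ratio of 1.5, 355 genes (4.67%) stood higher and 568 (7.47%) lower in the rIL7 section over collagen-rich spots. In the other spots, whose sums of UMIs are far larger, these counts were 144 (1.89%) and 101 (1.33%). Among genes of at least 100 CPM, a minimum added after seeing the data, 168 differed by 1.5-fold either way in collagen-rich spots.

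The genes highest in the rIL7 section were immunoglobulins and other secreted genes. The minimum of 20 CPM is a mean over both sections. Ighg2c, Igkc, Ighg2b, Slpi, Cpxm1 and C4b stood below 20 CPM in both groups of control spots and passed it through the rIL7 section. Their place in this order is therefore a description only. The ratio of rIL7 over control collagen-rich spots was 781 (139.8 to 30902.9) for Ighg2c, which had 762 UMIs against 1, and 133 (81.6 to 233) for Igkc and 21.8 (15.0 to 32.9) for Ighg2b. Ighg2c was detected in 48 of the 195 collagen-rich rIL7 spots, 1 of which reached 17430.5 CPM. Ighg2b and Ighg2c are related heavy chain genes between which reads may be split, so their separate values are uncertain. The hosts were BALB/c and reads were counted against mm10, and the assignment of reads to Ighg2c was not checked. In the other spots the ratio was 277.6 for Ighg2c, 48.3 for Igkc and 34.2 for Ighg2b, so the difference was not confined to collagen-rich spots.

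Slpi (9.40 and 219.2 CPM; ratio 23.3, 15.4 to 37.1) and Cpxm1 (13.08 and 217.5 CPM; ratio 16.6, 11.6 to 24.6) stood at ratios of only 3.55 and 3.32 in the other spots. Ccl8, a chemokine of macrophages, stood at 142.2 CPM in collagen-rich control spots and 1705.6 CPM in those of the rIL7 section, a ratio of 11.99 (10.75 to 13.42), against 5.42 in the other spots. Complement C4b (17.98 and 172.7 CPM; ratio 9.60) and C3 (64.98 and 569.5 CPM; ratio 8.77) had ratios of 2.56 and 4.39 in the other spots.

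Position moved with these ratios as well, since the collagen-rich spots of the sections lay in different places. Between collagen-rich edge spots the ratio of rIL7 over control was 8.11 for Ccl8, 5.78 for C3, 5.47 for Cpxm1 and 17.9 for Slpi. Between collagen-rich interior spots it was 3.46 for Ccl8, 3.20 for C3, 7.26 for Cpxm1 and 1.77 (0.662 to 4.33) for Slpi. The direction held in both places for Ccl8 and C3, and for Cpxm1, which had passed the minimum through the rIL7 section. The interior value for Slpi was within counting error of 1.

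For the choosing genes, the ratio between collagen-rich spots was 3.15 for Col1a1, 2.20 for Col3a1, 1.32 for Col1a2, 1.16 for Dcn and 0.561 for Pdgfra. Between edge spots it was 1.91, 2.23, 1.28, 1.19 and 0.591, and between interior spots 1.87, 1.204, 1.07, 1.31 and 0.884. Lum stood at 2.13 over all collagen-rich spots, 0.651 (0.356 to 1.26) at the edge and 0.628 (0.158 to 1.83) in the interior, the fragments of the rIL7 section having the highest level. Bgn stood at 2.36 at the edge and 2.43 in the interior, against 5.26 over all collagen-rich spots.

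By list, the T cell sum was 159.8 CPM in collagen-rich control spots and 503.7 CPM in those of the rIL7 section, a ratio of 3.15 (2.81 to 3.54) against 1.94 (1.86 to 2.02) in the other spots. It was 2.70 at the edge and 1.66 in the interior. The ratio of the B and plasma cell list was 25.6 over all, 22.8 at the edge and 2.28 in the interior. The endothelial list stood at 2.15 over all, 1.65 at the edge and 0.813 (0.5945 to 1.095) in the interior, and the MHC class II list at 1.61, 1.62 and 0.863 (0.817 to 0.911), so for both the interior stood on the other side of 1. The fibrillar collagens (1.33, 1.18 and 1.14), the glycoproteins (1.32, 1.28 and 1.102) and the fibroblast list (1.11, 1.08 and 1.04) had sums nearer even. By gene over all collagen-rich spots, 6 of 10 fibrillar collagens, 12 of 19 glycoproteins and 4 of 10 fibroblast markers were at least 1.5-fold higher in the rIL7 section, against 12.4% of all genes at the same minimum (12.5% lower), with median log2 ratios of 0.75, 0.87 and 0.38. Col5a2 (25.34 and 114.0 CPM), Postn (18.80 and 75.43 CPM) and Thy1 (51.49 and 125.7 CPM) were among them.

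The genes lowest in the rIL7 section were of mixed kinds. The ubiquitin ligase Trim7 stood at 43.73 CPM in collagen-rich control spots and 10.90 CPM in those of the rIL7 section, a ratio of 0.249 (0.156 to 0.385) against 0.520 in the other spots. The G protein subunit Gng8 (0.258), Gm45338 (0.285), Gm26532 (0.298), the transcription factor Osr2 (0.305), 2900093K20Rik (0.310), Rundc3a (0.323) and the D-glutamate cyclase Dglucy (0.332) followed. Each also stood below 1 in the other spots, where the ratios ran from 0.520 for Trim7 to 0.808 for Gm45338. Rundc3a stood at 9.64 CPM in collagen-rich and 18.38 CPM in other rIL7 spots. It passed the minimum of 20 CPM through the control section, so its place in this order is a description only.

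Among genes that passed the minimum, the contrast of collagen-rich with other spots differed most between the sections, toward the rIL7 section, for Gpx3, Slpi, Cpxm1, Serping1 and Bgn. Gpx3, a secreted glutathione peroxidase, stood at 17.57 against 13.46 CPM in the control (1.31-fold) and 142.1 against 16.32 CPM in the rIL7 section (8.70-fold), and Serping1, the C1 inhibitor, at 1.23-fold and 6.05-fold. Gpx3, Slpi and Cpxm1 stood below 20 CPM in collagen-rich and in other control spots, and passed the minimum through the rIL7 section, so the minimum itself favors this direction. Toward the control section the contrast differed most for Gm45338, the secreted Scube3, agouti (a), Gng8 and the long noncoding Dnm3os. Scube3 stood at 17.57 and 19.07 CPM in collagen-rich and other control spots. It passed the minimum through the other rIL7 spots (34.31 CPM), so the minimum itself favors this direction for it. Dnm3os stood at 105.8 against 82.57 CPM in the control, 1.28-fold, and at 36.46 against 72.78 CPM in the rIL7 section, 0.501-fold. At the edge of the control section it was 0.573-fold (0.282 to 1.05), and in its interior 1.33-fold (1.15 to 1.52).

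Over deciles of the spots in order of the choosing genes, several lists of the rIL7 section changed most at the last decile. The fibrillar collagens went from 639.9 CPM in the lowest decile to 892.4 CPM in decile 9 and 957.1 CPM in the highest in the control, and from 702.9 to 959.3 and 1271.5 CPM in the rIL7 section. MHC class II genes went from 1861.4 to 3459.0 and 3577.2 CPM in the control, and from 3406.3 to 3630.7 and 5771.5 CPM in the rIL7 section. B and plasma cell genes went from 146.3 CPM in decile 9 to 1025.1 CPM in the highest decile of the rIL7 section. Hypoxia genes went from 4031.4 CPM in the lowest decile to 2997.5 CPM in decile 9 and 3000.5 CPM in the highest in the control, and from 4829.7 to 2909.1 and 3092.8 CPM in the rIL7 section, so most of their change lay below the last decile. The share of edge spots was 22.56% in decile 9 and 69.74% in the highest decile of the rIL7 section, and 14.86% and 20.72% in the control.

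**Figure D5:**
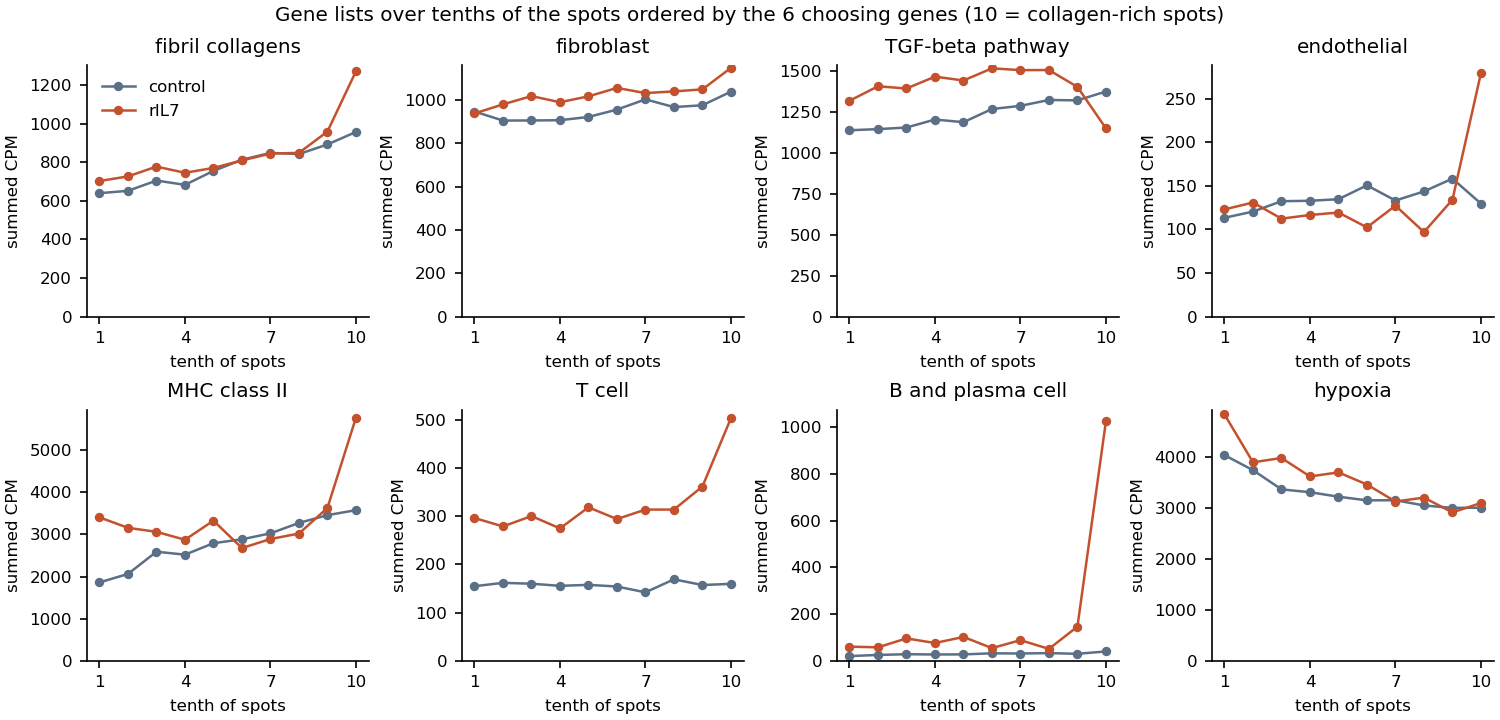
Summed CPM of 8 gene lists over deciles of the spots ordered by the 6 choosing genes, decile 10 being the collagen-rich spots, for the control (blue) and rIL7 (red) sections. MHC class II genes climb in the control, from 1861.4 to 3577.2 CPM, while in the rIL7 section the endothelial, T cell and B and plasma cell lists step up at the last decile.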

How the data were processed

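Tumor RNA was measured in 2 Visium sections, 1 per group. The UMI counts per gene and spot were deposited by the authors as raw matrices of 32285 features, made with Space Ranger 1.1.0 against mm10. The spot coordinates and in-tissue flags were used as deposited. Image scale factors were not used here.

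Spots over tissue with more than 200 genes and under 10% mitochondrial UMIs were kept, as in the study's methods, which removed 2 control spots and 1 rIL7 spot. The members and the gene lists were chosen with earlier results of these data known. UMIs were summed over collagen-rich and other spots and scaled to CPM in Python 3.11.15 (numpy 2.4.6, scipy 1.17.1, pandas 2.3.3). Ratios of sums have exact Clopper-Pearson 95% intervals, which cover counting error only, and a ratio with 0 UMIs on 1 side used a floor of 3 UMIs per group of spots. Spots of a section are not replicates, so no p-value is given. A gene was compared at a mean of at least 20 CPM, and was called at a ratio of at least 1.5 either way. A list was counted over its genes with at least 20 UMIs in each section, while its sum used all of its genes in the files (34 lists, 319 of 320 genes in the files). The edge was at most 2 grid steps deep, counted from the outside of the largest piece.

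Genes were named by rule: the 6 choosing genes; the 12 highest and the 8 lowest by the ratio that holds in both sections; the 8 highest and 8 lowest ratios between the sections in collagen-rich spots; the 5 each way with the largest difference of ratios; and members of a described list. Xist, Y-linked and mitochondrial genes were not named. Coordinates are from RefSeq GRCm38.p6, matched by symbol (7529 of 7613 genes). Alternatives covered the spot filter, the share and genes that choose the spots, position, depth, scaling (TMM in edgeR 4.0.16, median of ratios in DESeq2 1.42.0, R 4.3.3), minimum level and fold. The calculation of ratios and intervals was tested on simulated data. Values of some list genes are not reported here.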

Additional observations from a re-analysis of the deposited data

Results flagged for a closer look

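The results below were singled out because collagen-rich spots stood higher than other spots in 1 section and lower in the other, with the counting interval of both ratios off even, among the named genes and the lists. Each difference is the rIL7 minus the control log2 ratio, between 1 section and another, and was not tested.

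Pdgfra differed by -1.1 (control 0.79, rIL7 -0.31). Within the interior it was 0.77 and 0.34, on the same side in both. The transcription factor Osr2 differed by -1.27 (0.64 and -0.63, and 0.73 and 0.05 in the interior). Agouti (a) differed by -1.42 (0.36 and -1.07, and 0.34 and -0.33 in the interior), and Dnm3os by -1.36 (0.36 and -0.997, and 0.41 and -0.18 in the interior).

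The sum of the TGF-beta pathway list differed by -0.482 (0.16 and -0.32, and 0.15 and -0.09 in the interior), that of the proliferation list by 0.314 (-0.16 and 0.15, and -0.19 and 0.11 in the interior), and that of the interferon response list by 0.481 (-0.13 and 0.35, and -0.18 and 0.17 in the interior). The share of collagen-rich spots at the edge, 20.7% (control) and 69.7% (rIL7), moved with all 7, and its part in them was not tested beyond these interior values. Over the alternatives, the log2 ratio of the interferon response list in the control ran from -0.26 to 0.21, so its sign there depended on the setting.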

How the results depend on the processing

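Of 99 values for the counts of genes and the fibroblast medians under alternatives, 70 kept within 1.5 times the count or within the interval and 29 did not. The spot filters, TMM and median-of-ratios scaling and totals without the choosing genes moved none of them. Of 3466 values for single genes, lists and edge shares, 717 moved beyond the interval. A further 21 changed sign, counted only where the reported ratio was at least 1.5 either way with its interval off even. Sign changes of smaller ratios were not counted as such. The log2 ratio of the neutrophil list between the sections, for example, ran from -0.265 to 0.76. No paired analysis was possible because each group has 1 section. The cause of these moves was not tested, except that fewer spots or UMIs widen counting error.

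The number of genes at least 1.5-fold higher in the control (21), in the rIL7 section (168) and in both (10), and that differing between the sections (923), became 61, 286, 26 and 1609 with the top 5% of spots, 12, 81, 6 and 387 with the top 20%, 145, 508, 49 and 2031 at a minimum of 5 CPM, and 4, 55, 3 and 196 at 2-fold. With 1 CPM cut for both sections 36 genes passed in the control and 17 in both, with every spot weighted the same 52 and 20, and with spots thinned to 5000 UMIs 44 and 6. Chosen on Col1a1, Col3a1 and Dcn, 19 passed in both. Within the interior 3 passed in both, and the fibroblast median of the rIL7 section became 0.46. Chosen after seeing the data, spots ranked on Col1a2, Lum and Pdgfra gave 13, 61 and 2 genes, and a minimum of 100 CPM gave 168 genes differing between the sections.

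The sign changes counted in this way lay mostly within the interior. There the log2 ratio in the rIL7 section became -0.088 for Ccl8, -0.38 for Nr1h3, 0.054 for Osr2, -0.051 for the T cell attracting chemokines, -0.11 for the T cell list, -0.60 for the adipocyte list and -0.13 for the endothelial list. Between the sections it became -0.67 for Lum, -0.21 for MHC class II, -0.73 for Nr1h3, 0.21 for Rbpms2, -0.47 for Selenop, 0.0083 for agouti (a) and -0.30 for the endothelial list. With thinned spots Cpxm1 became -0.18 in the control and Osr2 0.22 in the rIL7 section. Ranked on Col1a2, Lum and Pdgfra, Bgn became -0.0051, Dnase1l3 -0.087 and Ms4a4b -0.021 in the control, and Osr2 0.10 in the rIL7 section. Without the 5% of spots highest in muscle, keratinocyte and adipocyte genes, the adipocyte list of the rIL7 section became -0.81.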
